A study of Mus musculus with 30 samples.

Results

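The kidneys of mice infused with angiotensin II were compared between the later days of infusion and the first day. The 4 kidney arrays of days 3 and 7 were pooled and set against the 2 kidney arrays of day 1, which makes 6 of the 30 arrays of the series. The 2 kidney arrays of day 0 gave the level before treatment and entered the same fit. The series also holds arrays of heart, brain and vessel; the heart is used here for 1 comparison.

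All mice were male C57BL/6, 8 to 10 weeks old, and total RNA of the organ was hybridised to Affymetrix mouse whole-genome arrays. Mice of days 1, 3 and 7 carried an osmotic pump delivering angiotensin II at 1500 ng per kg per min in a saline vehicle. Day 0 mice received no angiotensin II, and the labels do not say whether they carried a pump. Each kidney group has 2 arrays, called biological replicates in the labels, and whether organs of 1 mouse are matched across tissues is not stated. The p-values measure the spread between these arrays, which may in part be technical. No kidney group is labelled as having a pump without the peptide, so the peptide and the operation cannot be told apart.

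Angiotensin II constricts vessels, raises sodium reabsorption in the tubule and stimulates aldosterone release. The proximal tubule reclaims glucose, amino acids and phosphate, secretes organic anions and cations, and lives largely on fatty acid oxidation, so its transporter and lipid genes are a common readout of tubular state. Growing or stressed cells also adjust ribosome synthesis, and several noncoding transcripts carry in their introns the small nucleolar RNAs (snoRNAs) that guide chemical modification of ribosomal RNA.

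On 4 of the 8 arrays, markers of liver, fat or adrenal tissue stood above the rest. The mean of 11 tested liver markers was 11.61 on the log2 scale on day 1 replicate 2 and between 6.41 and 6.92 on the 7 other arrays. Albumin (Alb), a liver secretory protein, read 13.56 there and 6.33 to 6.62 elsewhere. The fat marker mean was 9.47 and 9.62 on the day 1 arrays, 10.71 on day 3 replicate 2 and 6.56 to 7.00 on the other 5. The adrenal marker mean was 8.17 on day 0 replicate 2 and 8.99 on day 3 replicate 2, against 5.59 to 5.70 on the other 6. Kidney markers were high on all 8 arrays, with a mean between 11.01 and 11.36. Genes that followed the liver, fat or adrenal markers over the arrays were set aside, as described with the set-aside genes. In whole organs, fewer cells of a type and less RNA per cell cannot be told apart.

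**Figure D1:**
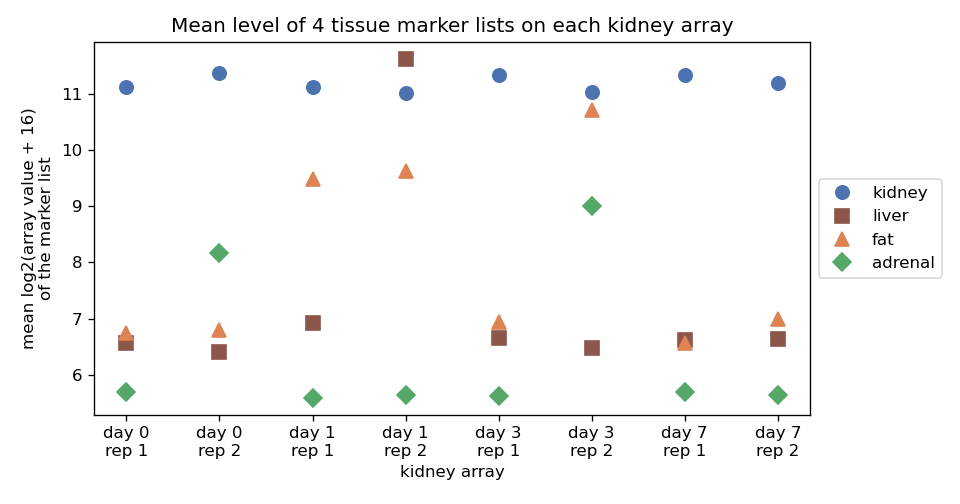
Mean level of the liver, fat, adrenal and kidney marker lists on each of the 8 kidney arrays, as mean log2(array value + 16) on the vertical axis. Day 1 replicate 2 stands out for liver (11.61), both day 1 arrays and day 3 replicate 2 for fat (9.47, 9.62 and 10.71), and day 0 replicate 2 and day 3 replicate 2 for adrenal (8.17 and 8.99), while the kidney markers lie between 11.01 and 11.36.

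Between day 1 and the later days 9 genes passed the threshold, 8 lower (0.0566% of genes tested) and 1 higher (0.00707%), and each moved back toward its day 0 level. The day 1 arrays enter both this difference and that from day 0, so the direction of the move is a description. The lower ones were 6 transcripts that contain snoRNA genes (2410006H16Rik, Snhg12, Zfas1, 1110038B12Rik, Gas5 and Taf1d), the carnitine synthesis gene Bbox1 and the aldo-keto reductase gene Akr1c13; the higher one was Slc7a13, an amino acid transporter of the late proximal tubule. The 9 are 0.0636% of the 14145 genes tested with limma at an adjusted p (Benjamini-Hochberg) under 0.05, and 1702 genes (791 higher, 911 lower) had an unadjusted p under 0.05. All 4 later arrays lay above both day 1 arrays for 1789 genes, 12.6% of those tested, and below both for 1674, 11.8%. The 6 calls of day 3 against day 1 (0.0424%) were all lower, and the 6 of day 7 against day 1 (0.0424%) were 5 lower and 1 higher; all of these contrasts use the same day 1 arrays. Between days 7 and 3, limma called 0 genes, with 608 at an unadjusted p under 0.05 and a smallest adjusted p of 0.978. The genes with the smallest p there were Efhd2, Slc43a1 and Peg3, with day 7 minus day 3 at 0.57, -0.55 and -0.70.

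The count of calls depended on single arrays more than the sizes of the differences did. Day 0 arrays enter this comparison only through the estimate of spread and its degrees of freedom. Leaving out either day 0 array gave 0 calls, although day 0 levels do not enter the difference. Leaving out the first or the second day 1 array gave 116 (4 higher, 112 lower) or 2 (both higher). The corresponding counts were 19 and 30 for the day 3 arrays, and 1 and 3 for the day 7 arrays. None of the 9 genes changed direction under any left-out array.

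The start regions of the 6 called genes with snoRNA genes inside are shown because many genes of the ribosome and of snoRNA hosts begin in a run of pyrimidines (C or T). Each line gives 30 bases before and 30 bases after the annotated start (RefSeq, GRCm38.p6, gene strand), 5′ to 3′. Capitals mark the longest unbroken run of C and T that touches the 5 bases on either side of the start.
2410006H16Rik, chr11:62602847-62602906, plus strand: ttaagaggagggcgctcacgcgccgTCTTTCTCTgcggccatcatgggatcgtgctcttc
Snhg12, chr4:132308648-132308707, plus strand: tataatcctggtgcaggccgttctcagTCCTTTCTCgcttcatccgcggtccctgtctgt
1110038B12Rik, chr17:34952439-34952498, minus strand: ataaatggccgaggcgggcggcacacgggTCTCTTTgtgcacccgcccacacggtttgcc
Gas5, chr1:161035136-161035195, plus strand: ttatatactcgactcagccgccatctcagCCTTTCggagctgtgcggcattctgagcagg
Zfas1, chr2:167062904-167062963, plus strand: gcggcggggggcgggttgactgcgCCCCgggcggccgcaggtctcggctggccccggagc
Taf1d, chr9:15306184-15306243, plus strand: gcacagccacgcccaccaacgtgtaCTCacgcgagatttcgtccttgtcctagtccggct

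The run was 9 bases long in 2410006H16Rik and Snhg12, 7 in 1110038B12Rik, 6 in Gas5, 4 in Zfas1 and 3 in Taf1d. A run of at least 7 bases was present in 3 of the 6 genes and in 15.7% of 27025 genes with a promoter entry. Among 17 noncoding genes with snoRNA genes inside that were tested and had an entry, 8 had one (47.1%). Gas5 and 1110038B12Rik have 2 annotated starts each, and the one with the longer run, or the first where they tie, is shown. The search for this run was chosen after the levels were seen, and a run of letters is a description of the sequence.

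The snoRNA host transcripts were high on day 1 and lower on every later array. 2410006H16Rik, a noncoding transcript with Snord49a, Snord49b and Snord65 inside, read 8.25 and 8.24 on day 0 and 10.03 and 10.09 on day 1 on the log2 scale. It then read 8.63 and 8.56 on day 3 and 8.51 and 8.76 on day 7. The groups did not overlap, and the fall was 2.73-fold (log2 difference -1.45, SE 0.09, limma adjusted p = 0.00766). Snhg12, which holds Snora16a, Snora44, Snora61 and Snord99, read 7.44 and 7.64, then 9.07 and 8.97, then 7.84 and 7.73, then 7.61 and 7.87 on days 0, 1, 3 and 7. Its later arrays were 2.39-fold below day 1 (log2 difference -1.26, SE 0.10, limma adjusted p = 0.018) and above both day 0 arrays on 3 of 4.

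Zfas1, a noncoding gene with Snord12 inside, read 8.40 and 8.43 on day 0, 9.66 and 9.70 on day 1, 8.70 and 8.47 on day 3 and 8.60 and 8.82 on day 7. 1110038B12Rik, with Snord52 inside, read 8.61 and 8.66, then 10.002 and 10.019, then 8.86 and 8.94, then 8.89 and 9.20. Both fell 2.05-fold (log2 differences -1.03 and -1.04, limma adjusted p = 0.0204 for each), and their later arrays remained above both day 0 arrays. Gas5, a growth-arrest transcript with 8 annotated snoRNA genes inside, read 10.17 and 10.22, then 11.20 and 11.17, then 10.50 and 10.51, then 10.37 and 10.48, a fall of 1.65-fold (SE 0.07 on the log2 scale, limma adjusted p = 0.0204). Of its 3 other probe sets, the bright one differed by -0.75 and the dim ones by -0.17 and -0.14. Taf1d, which encodes a subunit of the RNA polymerase I factor SL1 and has 6 annotated snoRNA genes inside, read 6.38 and 6.43 on day 0 and 7.48 and 7.18 on day 1. On the later arrays it read 6.34, 6.42, 6.44 and 6.41, beside the day 0 values, a fall of 1.91-fold (SE 0.10 on the log2 scale, limma adjusted p = 0.0335). Its probe sets disagreed: the next brightest differed by -0.49, and the mean of all 7 by -0.29.

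Other members of this group were lower too without passing the threshold. Of 9 snoRNA host genes listed, 7 were tested and 3 fell; the 4 others (Snhg6, Snhg1, Snhg8 and Snhg5) differed by -0.66, -0.64, -0.63 and -0.39. All 7 had every later array below both day 1 arrays, where 11.8% of all genes did, and the median difference was -0.66 against 0.01 over all genes tested. The list was chosen with earlier results of these data known, and the 3 called genes are among the 7, so these values are a description. A group of 20 tested noncoding genes with an annotated snoRNA gene inside was formed after the values were seen. Of these, 5 fell and 14 had all later arrays below day 1 (70%, against 11.8% of all genes), with a median of -0.47. The 1 member with all later arrays above day 1 was 2700038G22Rik (0.22). Among 266 protein-coding genes with an annotated snoRNA gene inside, 1 fell (Taf1d) and the median was 0.01; the difference between these groups was not tested. The 49 tested ribosomal protein genes had a median of -0.09, with 0 past the threshold (limma). On all later arrays 16 lay below day 1 (32.7%, against 11.8% of all genes) and 0 above (against 12.6%). Npm1, a nucleolar chaperone of ribosome assembly chosen after its values were seen, read 10.88 and 10.98, then 11.68 and 11.50, then 10.98, 11.04, 11.05 and 10.99 (difference -0.58, limma adjusted p = 0.103).

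None of the 6 host transcripts followed the liver, fat or adrenal markers. Without day 1 replicate 2, the array with high liver markers, the differences were -1.42 for 2410006H16Rik, -1.31 for Snhg12, -1.01 for Zfas1, -1.03 for 1110038B12Rik, -0.73 for Gas5 and -1.08 for Taf1d. The limma adjusted p ran from 0.0596 to 0.115, so none of the 6 passed the threshold without that array.

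**Figure D2:**
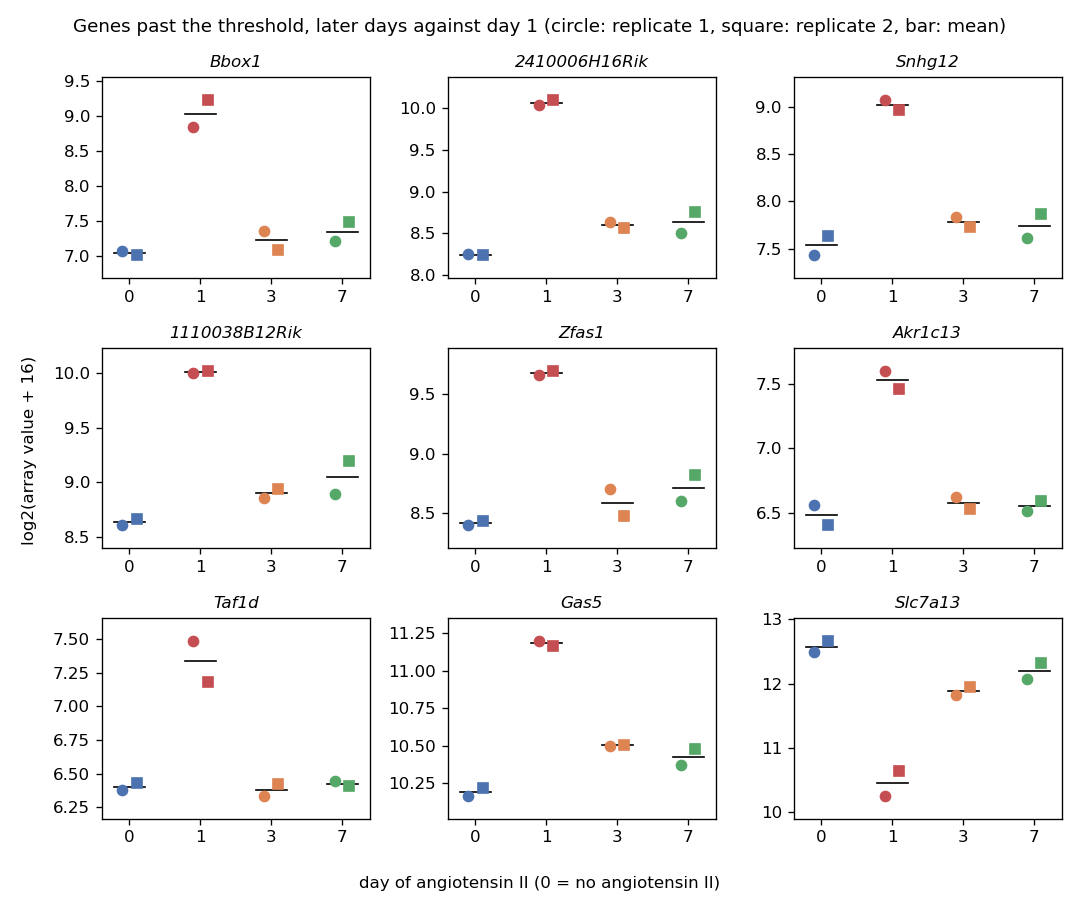
Level of the 9 genes past the threshold on each kidney array, as log2(array value + 16) against day, with circles for replicate 1, squares for replicate 2 and bars for the mean of the 2. The 8 genes that fell peak on day 1 and lie nearer to day 0 than to day 1 on days 3 and 7. Slc7a13 is lowest on day 1 (10.26 and 10.65) and reaches 12.07 and 12.32 on day 7.

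Bbox1 encodes the last enzyme of carnitine synthesis, which supplies the carrier for mitochondrial fatty acid uptake. It read 7.08 and 7.02 on day 0, 8.84 and 9.22 on day 1, 7.36 and 7.09 on day 3 and 7.21 and 7.48 on day 7. It fell 3.35-fold from day 1 (log2 difference -1.75, SE 0.14, limma adjusted p = 0.018), and the later arrays lay 0.24 above day 0 with a 95% interval from -0.09 to 0.56. A second, dimmer Bbox1 probe set differed by -1.0. Akr1c13, an aldo-keto reductase, read 6.56 and 6.40 on day 0, 7.60 and 7.46 on day 1, and 6.62, 6.53, 6.52 and 6.59 on the later arrays. It fell 1.95-fold (log2 difference -0.96, SE 0.08, limma adjusted p = 0.0187), and the distance left from day 0 was 0.08 (95% interval -0.11 to 0.28). With day 1 replicate 2 left out, the differences were -1.56 for Bbox1 (limma adjusted p = 0.0685) and -1.04 for Akr1c13 (0.0816).

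Genes of fatty acid oxidation and of the PPARα programme, which raises them in fasting and lipid load, had a lower median on the later days, and none passed the threshold. Of 47 tested members, 0 were called (limma), and the median was -0.20. On all later arrays 16 lay below day 1 (34.0%, against 11.8% of all genes) and 1 above (2.13%, against 12.6%). Cyp4a14, a fatty acid omega-hydroxylase, read 9.27 and 9.85 on day 0, 12.23 and 12.29 on day 1, 11.39 and 10.83 on day 3 and 10.96 and 10.88 on day 7. Its difference was -1.25 (SE 0.19, limma adjusted p = 0.129), and every later array was still above both day 0 arrays, by a mean of 1.45 (95% interval 0.997 to 1.91). Eci1, an isomerase of mitochondrial β-oxidation, read 11.55 and 11.43 on day 1 and 10.56 to 11.002 later, a difference of -0.72 (limma adjusted p = 0.152). The acyl-CoA thioesterase genes Acot1, Acot2 and Acot3 differed by -0.55, -0.39 and -0.46 and lay below day 1 on all later arrays. The list includes 8 members set aside with liver or fat markers, among them Fabp1, the liver fatty acid binding protein (7.43 and 11.37 on day 1, 5.32 to 6.51 later). Over the members not set aside the median was -0.16.

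Among cholesterol synthesis genes the median was higher on the later days, without a called gene. Of 20 tested members, 0 were called (limma), 15 had a positive and 5 a negative difference, 11 lay above day 1 on all later arrays (55.0%, against 12.6% of all genes) and 0 below, with a median of 0.24. Idi1, isopentenyl diphosphate isomerase, read 10.35 and 10.09 on day 0, 8.18 and 8.58 on day 1, 9.33 and 9.76 on day 3 and 9.77 and 9.48 on day 7. Its difference was 1.20 (2.31-fold, SE 0.17, limma adjusted p = 0.113), and later minus day 0 was -0.64 (95% interval -1.04 to -0.23). Nsdhl, a sterol dehydrogenase, read 9.45 and 9.36, then 8.75 and 8.66, then 9.26, 9.43, 9.42 and 9.19, a difference of 0.62 (limma adjusted p = 0.129). Cyp51, Msmo1 and Sqle, later enzymes of the same pathway, differed by 0.64, 0.62 and 0.55. The sterol element TCACNCCAC, searched on both strands in the 250 bases before the start, occurred in 1 of 16 members with an entry (Hmgcs1) and in 1.22% of all genes. The list median was 0.16 without day 1 replicate 1 and 0.29 without day 1 replicate 2. In the latter fit the differences were 1.40 for Idi1 and 0.57 for Nsdhl.

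The cholesterol export genes Apoe and Abca1, targets of the liver X receptor, ran the other way. Apoe, the carrier protein, read 9.89 and 10.28 on day 0, 11.61 and 12.26 on day 1, 11.04 and 11.11 on day 3 and 10.81 and 10.70 on day 7 (difference -1.02, SE 0.19, limma adjusted p = 0.152). Abca1, the transporter that loads it, read 8.00 and 8.16, then 9.47 and 9.79, then 8.91 and 9.09, then 8.28 and 8.85 (difference -0.85, limma adjusted p = 0.168). Later minus day 0 was 0.83 for Apoe and 0.70 for Abca1. The liver also makes Apoe: without day 1 replicate 2 its difference was -0.70 and that of Abca1 -0.69. Over all 13 tested members the median was -0.09, with 5 positive and 8 negative differences and 0 called (limma). Of the 13, 3 lay below day 1 on all later arrays (23.1%, against 11.8% of all genes) and 1 above (7.69%, against 12.6%). That median became -0.20 or -0.04 on leaving out the first or the second day 1 array. The lipid synthesis list (26 tested, 11 of them set aside, 10 with fat markers) had a median of 0.04 and 0 calls (limma). Its direction changed with single arrays. The median was -0.19 without day 3 replicate 2, the array with the highest fat marker mean, and -0.03 without day 1 replicate 2. Over members not set aside it was 0.11. Me1 and Fads1 were its members above day 1 with the smallest p, with differences of 0.51 and 0.45.

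Slc7a13, the transporter that rose, read 12.49 and 12.66 on day 0, 10.26 and 10.65 on day 1, 11.83 and 11.95 on day 3 and 12.07 and 12.32 on day 7. It rose 3.02-fold from day 1 (log2 difference 1.59, SE 0.13, limma adjusted p = 0.018). All later arrays were above day 1 and below day 0, and the distance left was -0.53 (95% interval -0.84 to -0.22). It remained past the threshold without day 1 replicate 2 (1.79, limma adjusted p = 0.046). Its other probe set read at most 4.84 on all 8 arrays, near the bottom of the scale.

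The proximal tubule list, of transporters, endocytic receptors and enzymes of that segment, had 53 tested members, of which 1 rose, 0 fell, 16 lay above day 1 on all later arrays (30.2%, against 12.6% of all genes) and 6 below (11.3%, against 11.8%). Its median was 0.16 for the later days against day 1 and -0.31 for day 1 against day 0; both use the same day 1 arrays. Slc34a1, the main phosphate transporter of the brush border, read 12.28 and 12.40 on day 0, 11.64 and 11.77 on day 1, 12.22 and 12.27 on day 3 and 12.08 and 12.18 on day 7. Its difference was 0.48 (SE 0.08, limma adjusted p = 0.129), and later minus day 0 was -0.15 (95% interval -0.34 to 0.03). Miox, the kidney inositol oxygenase, read 12.47 and 12.38 on day 1 and 13.29, 13.42, 13.39 and 12.93 later, beside 13.39 and 13.25 on day 0 (difference 0.83). Lrp2 and Cubn, the receptors that retrieve filtered protein, differed by 0.50 and 0.42, and Cyp27b1, which activates vitamin D, by 1.14. Slc7a12, an amino acid transporter related to Slc7a13, differed by 1.57, but its day 1 arrays read 8.78 and 5.73 and overlapped the later ones. The 6 members below day 1 on all later arrays, a share near that of all genes, included Slc5a10 (-0.54), a sugar transporter, Slc13a1 (-0.46), a sulfate transporter, and Pck1 (-0.30), an enzyme of glucose synthesis.

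The organic ion transporters of the Slc22 family, which move drugs and metabolites across the tubule wall, had a median of 0.44 over 14 tested members. None were called (limma), 4 lay above day 1 on all later arrays (28.6%, against 12.6% of all genes) and 1 below (7.14%, against 11.8%). Slc22a30 read 10.92 and 10.55 on day 0, 8.30 and 9.19 on day 1, 9.71 and 9.93 on day 3 and 9.57 and 9.88 on day 7, a difference of 1.03 (SE 0.25, limma adjusted p = 0.213) with later minus day 0 at -0.96. Slc22a22, a prostaglandin transporter, read 8.79 and 9.44 on day 1 and 10.23, 9.98, 9.98 and 9.88 later (difference 0.90). Slc22a7, an organic anion transporter, was still at 7.53 and 8.58 on day 3, as on day 1 (7.34 and 8.49), and read 9.03 and 9.76 on day 7, near the 10.30 and 9.93 of day 0. The day 1 arrays were far apart for these genes. With day 1 replicate 1 left out the differences were 0.58 for Slc22a30, 0.57 for Slc22a22 and 0.24 for Slc22a7, and the list median was 0.23. With day 1 replicate 2 left out they were 1.47, 1.23 and 1.39, and the list median was 0.35.

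Among 39 tested genes of the distal nephron and collecting duct 0 were called (limma), 8 lay above day 1 on all later arrays (20.5%, against 12.6% of all genes), and the median of 0.11 turned to -0.02 without day 1 replicate 2. Scnn1g, the gamma subunit of the epithelial sodium channel, read 7.47 and 7.38 on day 0, 7.47 and 7.65 on day 1 and 7.85, 7.93, 7.91 and 7.84 later (difference 0.32, limma adjusted p = 0.233), so that the later arrays stood above both earlier days. The 10 tested podocyte genes had a median of 0.14, which was 0.02 without day 1 replicate 2. The podocyte phosphatase gene Ptpro read 7.33 and 7.06 on day 1 and 7.82, 7.72, 7.74 and 7.51 later (difference 0.50, limma adjusted p = 0.18).

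Among the stress lists the highest share below day 1 was in genes of folding in the endoplasmic reticulum (ER), where 13 of 22 tested members (59.1%, against 11.8% of all genes) lay below day 1 on all later arrays and 0 above. The median was -0.26, and 0 were called (limma). Hspa5, the main ER chaperone BiP, read 11.82 and 11.74 on day 0, 12.47 and 12.13 on day 1 and 11.45, 11.51, 11.58 and 11.55 on the later arrays (difference -0.78, SE 0.10, limma adjusted p = 0.103). All later arrays were below day 0 too, with later minus day 0 at -0.26 (95% interval -0.50 to -0.02). Manf, a secreted ER stress protein, read 9.96 and 9.68, then 11.02 and 10.39, then 9.40, 9.82, 9.83 and 9.60 (difference -1.04, limma adjusted p = 0.166). Creld2, Sdf2l1 and Pdia4, other ER folding factors, differed by -0.73, -0.64 and -0.52. The other Hspa5 probe sets differed by -0.82 and 0.10. The differences were larger without day 1 replicate 2, -0.95 for Hspa5 and -1.36 for Manf, and the list median was -0.32.

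The ER stress element, CCAAT and CCACG separated by 9 bases, is the site through which the unfolded protein response is known to act, and it is shown for 3 members whose later arrays lay below day 1. Capitals mark the element in the promoter (RefSeq, GRCm38.p6), on the gene strand for Hspa5 and Syvn1 and on the opposite strand for Creld2.
Hspa5, chr2:34772009-34772059: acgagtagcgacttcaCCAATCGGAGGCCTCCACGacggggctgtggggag
Syvn1, chr19:6046516-6046566: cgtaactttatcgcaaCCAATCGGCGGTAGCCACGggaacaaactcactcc
Creld2, chr15:88819504-88819554: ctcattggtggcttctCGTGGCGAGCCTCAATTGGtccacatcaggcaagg
On either strand of the 250 bases before the start it occurred in 8 of 19 ER folding genes with an entry (42.1%) and in 0.13% of 27025 genes. The 8 included Calr and Canx, whose differences were -0.02 and 0.15, with overlapping arrays. The element was chosen after the levels were seen.

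Other stress lists had no called member (limma). Of 25 immediate early genes, which respond within minutes to growth signals, 6 lay below day 1 on all later arrays (24.0%, against 11.8% of all genes) and 0 above, with a median of -0.21 that was -0.12 without day 1 replicate 1. Jun read 7.63 and 7.71, then 8.35 and 8.34, then 7.86, 7.95, 7.66 and 7.98 (difference -0.48, limma adjusted p = 0.176). Fos, on day 1 at a mean of 1.42 above day 0, differed by -0.48 later with overlapping arrays. The glucocorticoid and metallothionein list had a median of -0.25 over 27 tested genes, 5 of them below day 1 on all later arrays (18.5%, against 11.8% of all genes). That median became -0.09 or -0.42 when the first or the second day 1 array was left out, and -0.05 when day 3 replicate 2 was. Mt2, a metal-binding protein, read 10.33 and 9.95, then 11.10 and 11.36, then 10.78 and 10.56, then 10.02 and 10.24 (difference -0.82, limma adjusted p = 0.146). Mt1 read 12.35 and 12.62 on day 1, 12.30 and 12.25 on day 3 and 11.81 and 11.92 on day 7, beside 11.79 and 11.74 on day 0, so that the difference from day 1 was -0.21 on day 3 and -0.62 on day 7. Leaving out day 1 replicate 2 gave -0.70 for Mt2 and -0.28 for Mt1. Cytosolic heat shock genes (20 tested, median -0.11), Nrf2 targets (26, -0.08), amino acid stress genes (21, -0.02) and p53 targets (14, -0.01) had medians nearer to that of all genes. The heat shock median was 0.04 and the p53 median 0.09 without day 1 replicate 1, a change of direction. Hspb1, a small heat shock protein, differed by -0.55, Gsta3, a glutathione transferase, by -0.57, and Psat1, of serine synthesis, by -0.40.

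The list of tubule injury genes had 39 tested members, 0 called (limma), 8 below day 1 on all later arrays (20.5%, against 11.8% of all genes) and a median of -0.10. The median was -0.03 over members not set aside and -0.01 without day 1 replicate 1. Of the 39, 7 were set aside, among them the fibrinogen genes Fga, Fgb and Fgg. Fgg read 6.80 and 6.86 on day 0, 9.30 and 11.49 on day 1 and 6.81 to 7.62 later, so the day 1 array without the liver marks also lay above all others. Its difference was -3.13 with day 1 replicate 2 and -2.04 without it. Lcn2, the injury marker NGAL, differed by -2.46 with that array and -0.83 without it. Cp, ceruloplasmin, was not set aside and read 8.41 and 8.97, then 10.44 and 11.01, then 9.90 and 9.36, then 9.39 and 9.65 (difference -1.15, limma adjusted p = 0.176; -0.87 without day 1 replicate 2). Fat markers were high on both day 1 arrays and liver markers on day 1 replicate 2 alone, and their part in these values was not tested. Havcr1, the injury marker KIM-1, differed by 0.44 with overlapping arrays. Cdkn1a, a cell cycle inhibitor that also responds to stress, read 7.85 and 7.36, then 8.98 and 8.42, then 8.31, 8.35, 8.13 and 8.17 (difference -0.46; -0.18 without day 1 replicate 1).

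**Figure D3:**
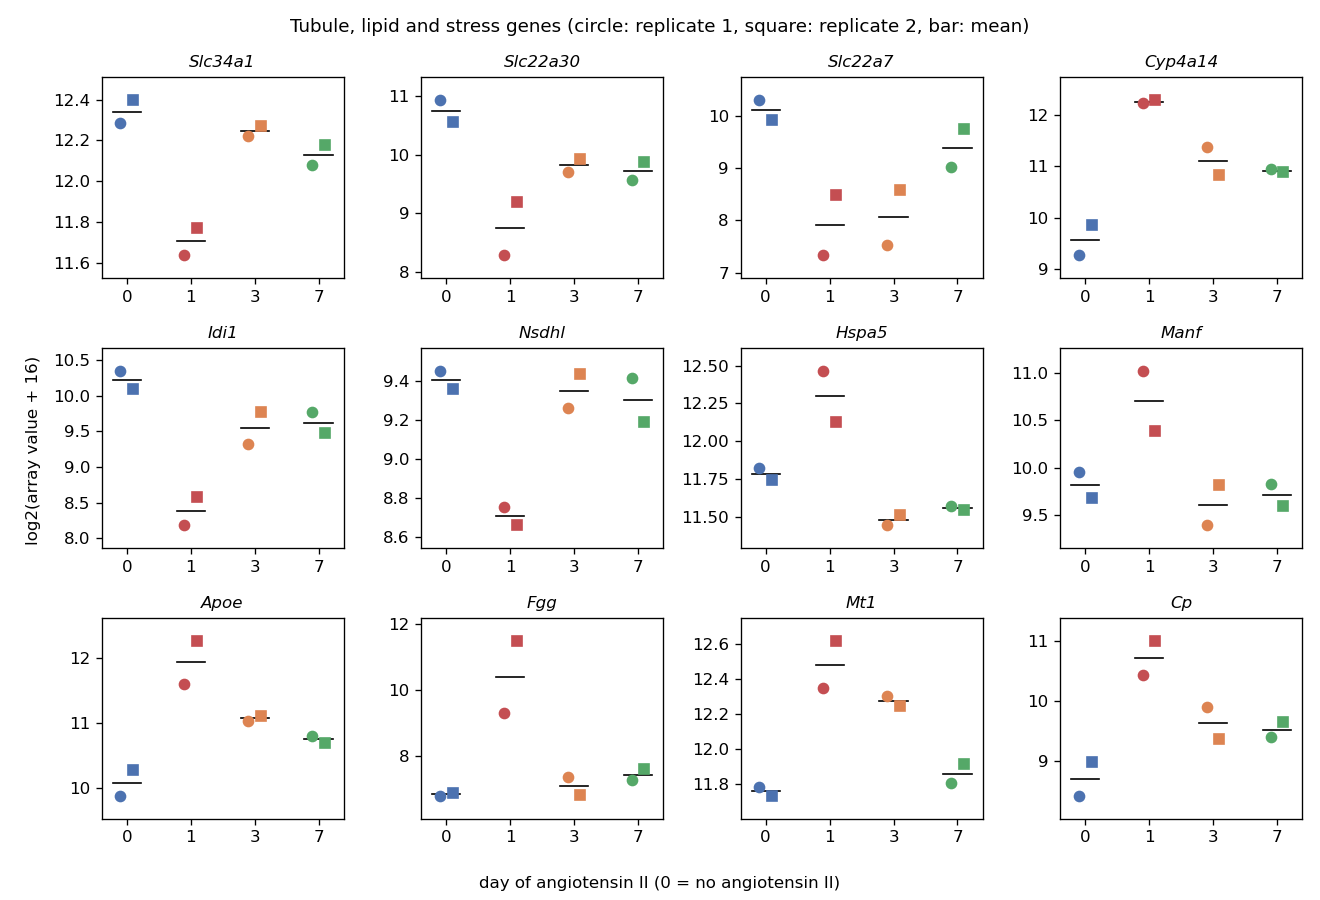
Level of 12 tubule, lipid and stress genes on each kidney array, as log2(array value + 16) against day, with circles for replicate 1, squares for replicate 2 and bars for the mean of the 2. None passed the threshold between the later days and day 1. Fgg read 9.30 and 11.49 on day 1, the higher value on replicate 2, the array with high liver markers. Mt1 and Slc22a7 are nearer to day 0 on day 7 than on day 3.

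Immune, matrix and vascular lists had 0 called members each (limma). Macrophage and monocyte genes (26 tested) had a median of -0.28 for day 3 and 0.52 for day 7 against day 1, but replicates of a day were far apart. The list medians of the single arrays, against the day 1 mean, were -0.68 and 0.12 on day 3 and 0.02 and 0.90 on day 7. Csf1r, the receptor of their growth factor, read 9.92 and 10.16 on day 1, 10.05 and 10.30 on day 3 and 10.69 and 10.86 on day 7, beside 10.73 and 10.77 on day 0. Lgals3, galectin-3, read 9.81 and 9.83 on day 0, 10.21 and 10.12 on day 1, 10.15 and 10.43 on day 3 and 10.87 and 10.67 on day 7. The neutrophil genes S100a8 and S100a9 differed by -1.11 and -0.87 with overlapping arrays, since day 7 replicate 1 (8.01 and 8.02) was above the lower day 1 array of each. Interferon response genes (27 tested) had medians of -0.48 for day 1 minus day 0, 0.09 for later minus day 1 and -0.38 for later minus day 0. The day 0 arrays lay 0.85 and 0.12 above the day 1 mean in the median, so both values against day 0 rest mainly on day 0 replicate 1. Matrix genes (44 tested) had a median of 0.15, with 12 above day 1 on all later arrays (27.3%, against 12.6% of all genes). That median became 0.05 or 0.28 when the first or the second day 1 array was left out, and 0.09 when day 3 replicate 2 was. Bgn, biglycan, read 9.55 and 9.59 on day 1 and 9.96, 10.09, 10.05 and 9.97 later (difference 0.45, limma adjusted p = 0.129), and Fbln5, an elastic fibre protein, differed by 0.68.

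The lists of T, NK and B cells (median 0.06), MHC class II (-0.13), chemokines and cytokines (0.04), the circadian clock (-0.03), oxidative phosphorylation (0.05), endothelium (-0.02) and the cell cycle (0.19) also had 0 called members. On all later arrays 13 of 44 oxidative phosphorylation genes (29.5%) and 7 of 25 cell cycle genes (28.0%) lay above day 1. Of all genes 12.6% did, and of the proximal tubule list 30.2%. The share above was 22.7% for endothelium and 12.5% or less for the other lists named here. Below day 1 lay 2.27% of the oxidative phosphorylation and 4.0% of the cell cycle genes, against 11.8% of all genes. The MHC class II median was 0.43 without day 1 replicate 1 and -0.49 without day 1 replicate 2, so its direction changes with the day 1 array used. The cell cycle median was 0.09 without day 1 replicate 2 or day 3 replicate 2, and the T, NK and B cell median 0.18 without day 1 replicate 1. In the renin-angiotensin list (11 tested, median 0.08), Agtr1a, the main angiotensin receptor of the tubule, read 9.22 and 9.19 on day 0, 8.82 and 8.95 on day 1 and 9.26, 9.50, 9.11 and 9.17 later (difference 0.38, limma adjusted p = 0.212). Enpep, an aminopeptidase that degrades angiotensin II, differed by 0.41, and Ace, which makes it, by 0.34 with overlapping arrays. Agt, its precursor, was set aside with the liver markers (8.40 and 8.94 on day 1, 7.96 to 8.32 later).

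**Figure D4:**
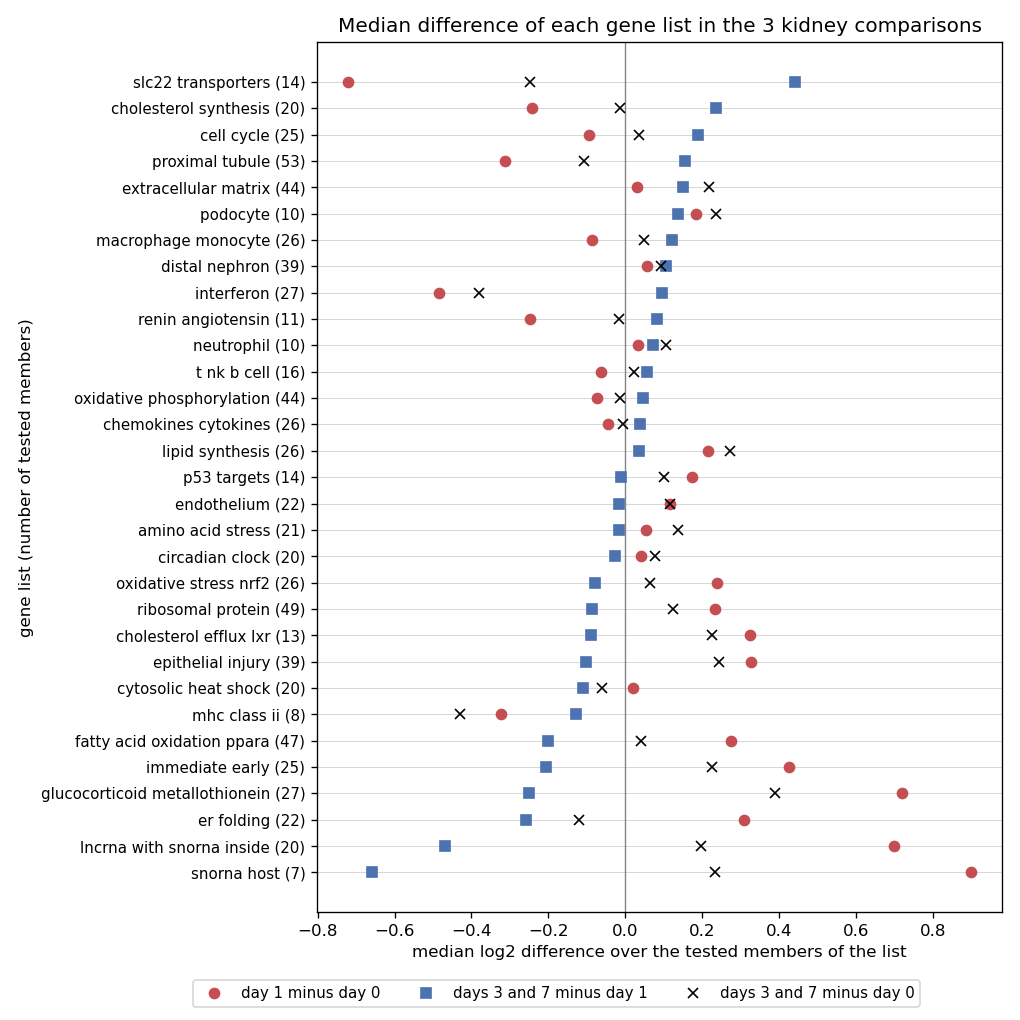
Median log2 difference over the tested members of each gene list for day 1 minus day 0 (circles), days 3 and 7 minus day 1 (squares) and days 3 and 7 minus day 0 (crosses), with the number of tested members in brackets. The squares run from -0.66 for snoRNA host genes to 0.44 for the Slc22 family; the first and second comparison share the day 1 arrays.

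Of the genes that had moved by day 1, most were nearer day 0 later. Day 1 against day 0 called 71 genes (0.502%), 37 higher and 34 lower, with a median size of 0.94 on the log2 scale. The median distance from day 0 on the later days was 0.37, and 43 of the 71 stood within 0.5 of day 0, 28 beyond it and 2 beyond 1. These values share the day 1 and day 0 arrays and are a description. Later days against day 0 gave 0 calls (limma), 1197 genes at an unadjusted p under 0.05 and a smallest adjusted p of 0.294. The 2 genes beyond 1 were Cyp4a14, given above, and Sema3g, a secreted semaphorin. Sema3g read 7.86 and 7.67 on day 0, 9.04 and 8.86 on day 1 and 8.87, 8.70, 9.09 and 8.67 later, which was 1.07 above day 0 (95% interval 0.75 to 1.38). Among genes that had fallen by day 1, Akr1d1, a steroid reductase, and Slc51a, a steroid and bile acid transporter subunit, had later minus day 0 at -0.995 and -0.94. Tmem237 was close to its day 1 level, with 8.05 and 8.05 on day 1 and 8.12, 7.93, 8.15 and 8.09 later against 8.76 and 8.68 on day 0. Acy3, an aminoacylase of the proximal tubule, had later minus day 0 at -0.69 (95% interval -1.03 to -0.35). These examples were chosen after their values were seen.

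The genes set aside numbered 588 of 14145 (4.16%): 188 with liver, 219 with fat and 181 with adrenal markers. The tested members of the liver, fat and adrenal marker lists were set aside whatever their correlation. Any other gene was set aside where its correlation with the mean of the markers was at least 0.8 over the 8 arrays. This had to hold both for the values and for the deviations from the day means. None of the 9 called genes was among them, but 1 of the 9, Bbox1, was set aside with the liver markers at a correlation of 0.7. Of the 588, 67 lay below day 1 on all later arrays and 25 above, where 1674 (11.8%) and 1789 (12.6%) of all 14145 genes did. The share below was near that of all genes, and the share above was lower than that of all genes. An unadjusted p under 0.05 (limma) was found for 78 of the 588 and for 1702 of the 14145. The largest differences of the whole comparison were in this group, led by Hpx (-4.14), Saa1 (-3.97) and Apoa1 (-3.76), which were high on day 1 replicate 2 alone. The fat genes Ucp1, the brown fat uncoupling protein, and Adipoq, adiponectin, differed by -3.16 and -3.05. Ucp1 read 10.49 and 10.02 on day 1 and 11.69 on day 3 replicate 2, and 5.34 to 5.89 on the other 5 arrays. With the 588 left out before the test, 16 genes passed, 3 higher and 13 lower, and the 9 were all among them.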

How the data were processed

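Gene expression was measured in kidney RNA of 8 mouse arrays, 2 each for days 0, 1, 3 and 7. The deposited values are intensities on a linear scale, 1 per probe set, which the authors computed in Affymetrix Expression Console (named in the submitters' processing notes); no version or algorithm is named in the sources used here. They ran from 3.20 to 21336 on the kidney arrays, and array medians from 35.2 to 36.0, so depth is expressed only as signal over background. Of 45101 probe sets, 34945 carried 1 gene symbol (platform annotation, 34741 matched to RefSeq by Entrez identifier), 932 several and 9160 none; 64 were controls. Each of 18193 genes was represented by its brightest probe set. Values were analysed as log2(intensity + 16), which understates changes of weak genes, without further normalization.

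A gene was tested if above the 40th percentile of its array on at least 2 of the 8 arrays. Group means were fitted over all 8 arrays in limma 3.58.1 (R 4.3.3), with contrasts, moderated variances (4 residual degrees of freedom, a median of 7.15 after moderation), 95% intervals and Benjamini-Hochberg adjustment over all genes tested. The threshold was an adjusted p under 0.05. Named genes were the 12 largest calls each way, up to 4 called members of each list or the 2 with the smallest p, the 3 smallest p between days 7 and 3, and Agt, Ace and Agtr1a (Ren1, also in the rule, had no probe set with 1 symbol); others were chosen after their values were seen. Members and lists were chosen with earlier results of these data known. The fit was tested on simulated data. Same-numbered replicates deviated together with correlations from -0.09 to 0.25 over the 8 arrays (0.146 to 0.169 among days 1, 3 and 7); with 2 numbers and no label that ties them to a mouse or batch, they were not taken to pair arrays. Alternatives covered the filter, added value, normalization, probe set rule, variance model, marker covariates and left-out arrays. Promoter motifs were exact matches. The planned motifs GAANNTTC (heat shock), CACGTG, TTATGTAA and TCACNCCAC occurred in 0 of 8 called genes with an entry, and TGTTCT in 1 (Bbox1), beside 7.73%, 6.86%, 0.977%, 1.22% and 18.2% of 27025 genes. Figures were drawn with matplotlib 3.10.9.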

Additional observations from a re-analysis of the deposited data

Results flagged for a closer look

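The difference between later days and day 1 was compared with that in heart (3 arrays per day) in 1 limma fit over 20 arrays, with p adjusted over all 14145 genes, of which 258 (1.82%) differed between the organs. The 9 genes were picked for their size in kidney, so these differences are not independent of that choice. Kidney minus heart was -1.79 for 2410006H16Rik (adjusted p = 0.0113), -1.15 for Snhg12 (0.0138), -1.23 for Zfas1 (0.0166), -1.69 for Bbox1 (6.83e-05), -0.94 for Akr1c13 (0.0115) and 1.65 for Slc7a13 (0.000641). In heart itself the later days differed from day 1 by 0.34 for 2410006H16Rik, -0.11 for Snhg12 and 0.20 for Zfas1, none past the threshold. Bbox1, Akr1c13 and Slc7a13 were dim in heart, with day means from 5.10 to 6.25. Gas5, Taf1d and 1110038B12Rik did not pass the test of the difference, with adjusted p of 0.0862, 0.174 and 0.282.

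Among the 4 later kidney arrays, 4 of 79 named genes and marker means had 1 array far from the other 3, judged by the gap over the range (Dixon's 95% value); chance gives about 1 in 20. The fat marker mean was 10.71 on day 3 replicate 2 against 6.56 to 7.00, and the adrenal mean 8.99 there against 5.62 to 5.69. Gsta3 read 8.99 on day 7 replicate 2 against 9.59 to 9.65, and Agt 8.32 on day 3 replicate 1 against 7.96 to 8.02.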

How the results depend on the processing

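The 9 genes kept their direction under all 25 alternatives. Counts of calls against day 1 are given for the later days, day 3 and day 7, in that order, beside 9, 6 and 6. They were 17, 10 and 12 with trended and robust variances, 74 (30 higher, 44 lower), 27 and 48 in a joint fit with heart and brain, 0, 0 and 0 with the fat or the adrenal marker mean as a covariate, and 0, 0 and 1 with the liver marker mean. The differences themselves stayed near their size under these covariates: with the fat marker mean, 2410006H16Rik was -1.47, Bbox1 -1.85, Zfas1 -1.12 and Slc7a13 1.67. With day 1 replicate 2 and day 3 replicate 2 left out together they were 42, 14 and 41. Leaving out single arrays gave 0 to 116, 0 to 106 and 0 to 109. With days 3 and 7 as 1 group the later days gave 19 calls over 8 arrays and 9 over the 6 arrays of days 1, 3 and 7 alone. With day 0 replicate 2 and day 3 replicate 2 left out together the later days gave 24, and 29 for day 7. With set-aside genes left out it was 16, and 12 for day 7. For days 3 and 7 it was 1 and 1 without the filter, with the mean of all probe sets or with 1 added before the log, and 1 and 2 after quantile normalization. Each marker covariate and each left-out array takes degrees of freedom from the estimate of spread. The part this plays in these shifts, and any other cause, was not tested.

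Day 1 against day 0 gave 71 calls, and 18 without the filter, 31 with 1 added, 149 with trended and robust variances, 250 in the joint fit, 0, 7 and 16 with the fat, liver or adrenal mean as a covariate, 120 and 33 with the array pairs above left out, 178 without set-aside genes and 0 to 150 with 1 array left out. Later days against day 0 gave 0 calls, 17 in the joint fit, 3 without day 0 replicate 2 and day 3 replicate 2, and 0 to 32 with 1 array left out; day 7 against day 3 gave 0 to 40. With the replicate number as a block, the counts were 6 for the later days, 2 for day 3, 2 for day 7 and 21 for day 1 against day 0. Under the block Gas5, Zfas1 and Taf1d were not called (limma adjusted p = 0.0678, 0.0678 and 0.0987); the numbers were not taken to pair the arrays. At a correlation of 0.7 or 0.9, 1100 or 248 genes were set aside.

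Over 100 single genes, 2343 of 2487 values kept direction and side of the threshold, and 8 reversed, all of genes near 0. Actc1, -0.06 with all arrays, was 0.119 with the fat marker mean as a covariate, 0.182 with the liver marker mean, and 0.0717 without day 1 replicate 2 and day 3 replicate 2. With 1 array left out Actc1 ranged from -0.286 to 0.157, above 0 without day 1 replicate 2, day 3 replicate 1 or day 7 replicate 1. Tmem237, 0.02 with all arrays, was -0.0738 with the fat marker mean as a covariate and ranged from -0.0292 to 0.0702 with 1 array left out. With 2 arrays a day, small changes could not be detected.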
